A study of Homo sapiens with 4 samples.

Results

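Transcript levels of 10 selenium-related genes were followed in KBM5 cells, a human line established from chronic myeloid leukemia in blast crisis that carries the BCR-ABL fusion kinase. The genes are the selenoproteins SELENOF, SELENOH, SELENOK, SELENOO, SELENOS, SELENOT, SELENOW and TXNRD1, and the selenocysteine factors SEPHS2 and SECISBP2. They were taken by symbol as selenoproteins outside the glutathione peroxidase (GPX) family and as factors that serve selenocysteine insertion, and each symbol matched 1 of the 50868 rows of the expression table. The cells had been treated with DSF, with IM or with both (IM-DSF), or were the control (CTR), and each of these 4 groups is 1 library. The labels do not spell out the abbreviations, which are read here as disulfiram (DSF) and imatinib (IM), an inhibitor of the BCR-ABL kinase, and they give neither dose nor time. All 4 groups share the same cell line, and its cells were sequenced as a stranded mRNA library made from total RNA. Going by its title, the study joins GPX4 and BCR-ABL as targets, and GPX4 is itself a selenoprotein.

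Selenoproteins carry selenocysteine, an amino acid that the ribosome inserts at a UGA codon that would otherwise end translation. A stem-loop in the mRNA's 3′ untranslated region, the SECIS element, directs this. SECISBP2 binds that element and brings in the elongation factor that carries the selenocysteine tRNA. SEPHS2 makes selenophosphate, the selenium donor with which selenocysteine is built on its own tRNA, and SEPHS2 is a selenoprotein too. Most of the other proteins here are oxidoreductases: several sit in the endoplasmic reticulum (ER), TXNRD1 reduces thioredoxin in the cytosol, and SELENOO lies in mitochondria. Selenoprotein mRNAs can be degraded by nonsense-mediated decay when the UGA is read as a stop upstream of an exon junction.

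The codons that define 9 of the 10 genes are shown because the place of the UGA differs between them. Each line gives the coding strand of the GENCODE 29 transcript (GRCh38), with 21 bases before the codon, up to 21 after it within the coding sequence, and the selenocysteine TGA in capitals. SECISBP2 has no such codon.
SELENOF, chr1:86880690-86880692, minus strand: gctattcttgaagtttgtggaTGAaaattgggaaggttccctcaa
SELENOH, chr11:57741816-57741818, plus strand: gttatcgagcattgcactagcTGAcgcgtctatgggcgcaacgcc
SELENOK, chr3:53885831-53885833, minus strand: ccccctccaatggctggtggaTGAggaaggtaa
SELENOO, chr22:50217358-50217360, plus strand: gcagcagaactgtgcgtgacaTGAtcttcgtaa
SELENOS, chr15:101272777-101272779, minus strand: agaggcccgtcatctggcggaTGAggctaa
SELENOT, chr3:150622392-150622394, plus strand: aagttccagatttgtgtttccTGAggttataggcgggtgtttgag
SELENOW, chr19:47780732-47780734, plus strand: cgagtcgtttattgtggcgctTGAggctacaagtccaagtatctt
TXNRD1, chr12:104348413-104348415, plus strand: agcatcctccaggctggctgcTGAggttaa
SEPHS2, chr16:30445548-30445550, minus strand: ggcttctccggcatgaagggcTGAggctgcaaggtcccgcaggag

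In SELENOK, SELENOO, SELENOS and TXNRD1 only 1 or 2 codons lie between the TGA and the ordinary stop, which is the taa that ends each of those lines. In SELENOW it is codon 13 of 88 (stop included), in SELENOH codon 44 of 123, in SELENOT codon 49 of 196, in SEPHS2 codon 60 of 449, and in SELENOF codon 96 of 166. A stop more than about 50 bases before the last exon junction is the usual condition for nonsense-mediated decay. 4 of the 9 codons meet it, at 78 bases in SELENOF, 136 in SELENOH, 243 in SELENOW and 470 in SELENOT. SELENOK and SELENOS have the codon 5 and 13 bases before the last junction, SELENOO and TXNRD1 have it in the last exon, and SEPHS2 has a single exon.

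The deposited unit is FPKM, which counts a gene's fragments relative to its length and to the depth of the library. The denominators recovered from the values were 14704466 fragments in DSF, 15810648 in the IM library and 12443256 in the IM-DSF library, against 14506545 in CTR. A gene entered the comparisons, and is called tested here, when its mean over the 4 libraries reached 1 FPKM, which 11004 genes did, all 10 selenium genes among them. With 242 to 7275 fragments per gene and library, the selenium genes were counted well enough to give a 95% counting interval for each ratio. There is no replicate, so no p-value can be given, and each interval speaks for counting error alone and says nothing of how cultures vary. In bulk RNA, fewer cells expressing a gene and less of its RNA per cell cannot be told apart. The labelled cell type was checked by marker genes: 6 of 8 myeloid markers averaged at least 1 FPKM, against 0 of 5 megakaryocyte and 1 of 7 lymphoid markers. KIT was at 0 in all 4 libraries and CD34 had 1 fragment in CTR and none in the others, so these progenitor markers were absent or nearly so. The summed FPKM of the myeloid markers was 461 under DSF, 676 under IM and 839 under IM-DSF, against 384 in CTR, and its part in the results below was not tested. LYZ, lysozyme, accounts for most of that range with 217, 399 and 599 FPKM in DSF, IM and IM-DSF, against 154 in CTR. Without it the other 7 summed to 244, 277 and 240 FPKM in DSF, IM and IM-DSF, against 229.9 in CTR. Lymphoid markers summed to 11.4, 12.4 and 13.8 FPKM in DSF, IM and IM-DSF, against 11.98 in CTR, while CD3E and MS4A1 were at 0. Nearly all of that sum was NKG7, with 10.8, 11.9 and 13.3 FPKM in DSF, IM and IM-DSF, against 11.35 in CTR. The megakaryocyte sum was 0.486, 0.406 and 0.362 FPKM in DSF, IM and IM-DSF, against 0.182 in CTR, with PF4, PPBP and GP1BA at 0. It rests mostly on GP9, with 6, 5 and 4 fragments in DSF, IM and IM-DSF, against 2 in CTR. The counting intervals of GP9 over CTR all include 1.

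SELENOF was the selenium gene that differed most, being about 2-fold higher in every treated library than in CTR. Its product works in the ER, where it binds the glycoprotein folding sensor UGGT. SELENOF (ENSG00000183291, GRCh38.p14 chr1:86862445-86914424, minus strand, 7 merged exons) had 16.8 FPKM under DSF, 18.1 under IM and 18.0 under IM-DSF, against 8.06 in CTR. The 3 treated libraries lie close together and CTR stands alone below them. These values rest on 1431, 1659 and 1304 fragments in DSF, IM and IM-DSF, against 679 in CTR. The ratio to CTR was 2.08 in DSF (95% interval 1.90 to 2.28), 2.24 in IM (2.05 to 2.46) and 2.24 in IM-DSF (2.04 to 2.46). These 3 contrasts share the CTR library. Between treated libraries the ratio was 0.999 for IM-DSF over IM (0.928 to 1.08) and 1.08 for IM-DSF over DSF (0.998 to 1.16), both with 1 inside the interval.

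**Figure D1:**
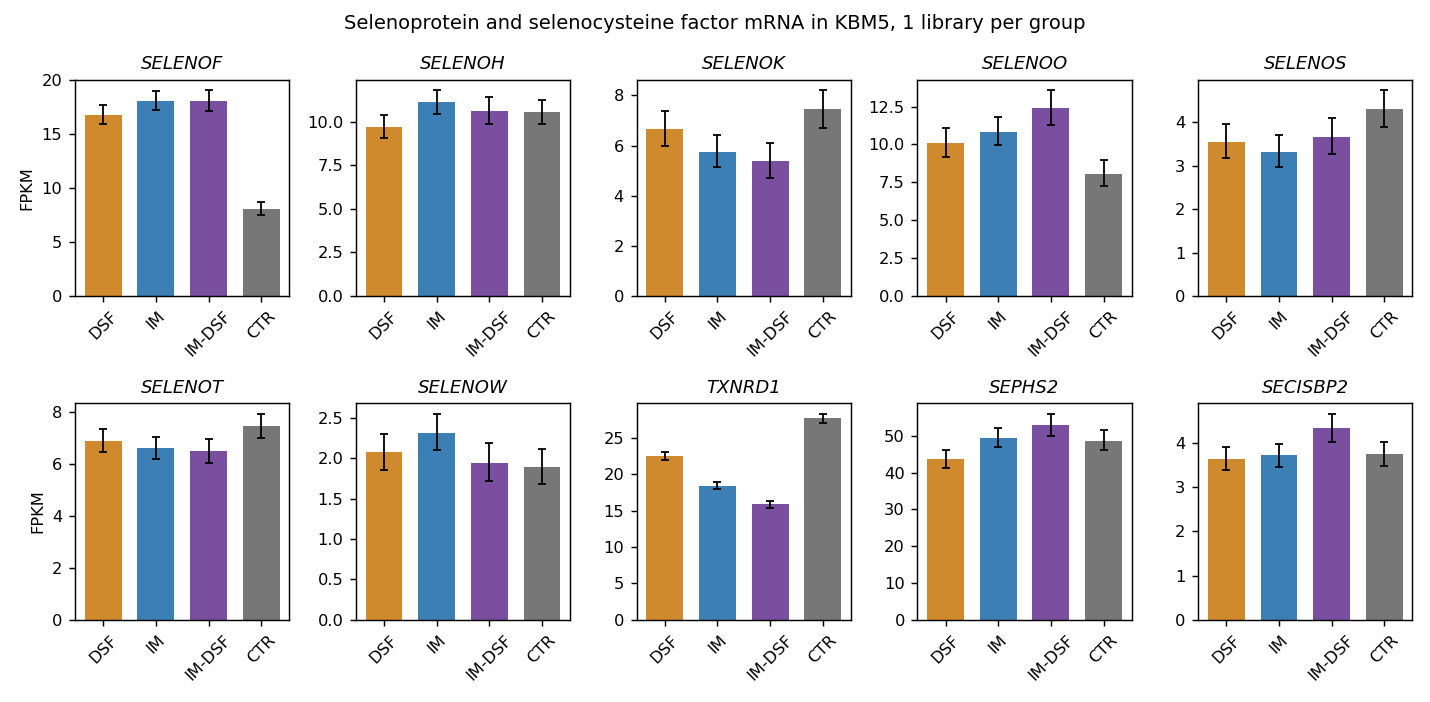
FPKM of each of the 10 genes (vertical axis, starting at 0, own scale per panel) in DSF, IM, IM-DSF and CTR, 1 library each; error bars are 95% Poisson counting intervals and not a spread between cultures. SELENOF stands at 16.8 to 18.1 FPKM in the treated libraries and 8.06 in CTR, and TXNRD1 has its highest bar, 27.6 FPKM, in CTR.

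The size rule asked for a difference of at least 1 unit on the log2(FPKM + 1) scale, which is 2-fold and understates the change of low genes. SELENOF passed it in IM and in IM-DSF against CTR, at 1.07 in both, and missed it at 0.97 in DSF. No other selenium gene passed it in any of the 5 contrasts. The share of all tested genes that passed in either direction was 1.12% in DSF against CTR, 2.43% in IM against CTR, 4.28% in IM-DSF against CTR, 1.74% in IM-DSF against IM and 2.37% in IM-DSF against DSF. Among the 11004 genes SELENOF ranked 67th from the top in DSF against CTR, 132nd in IM against CTR and 237th in IM-DSF against CTR. 1 of 10 genes is too small a number to set against those shares.

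Counted by their intervals, the share of the selenium genes that differed between libraries was near that of all tested genes, so the counts are no result particular to them. The interval excluded 1 in 5 of 10 in DSF against CTR, where 45.2% of all tested genes did, in 7 in IM against CTR (63.6%), and in 8 in IM-DSF against CTR (67.0%). It excluded 1 in 4 of 10 in IM-DSF against IM (45.2%), 2 of them above and 2 below (22.3% and 22.9%). In IM-DSF against DSF it did in 5 (61.2%), 3 above and 2 below (31.7% and 29.6%). By direction, 2 genes lay above and 3 below CTR in DSF (22.7% and 22.5% of all tested genes), 3 above and 4 below in IM (33.9% and 29.6%), and 4 above and 4 below in IM-DSF (34.8% and 32.2%). The median log2 difference over the 10 genes was -0.10 under DSF, 0.01 under IM and 0.02 under IM-DSF against CTR, beside 0.00, 0.02 and 0.02 over all tested genes. It was -0.01 in IM-DSF against IM and 0.07 in IM-DSF against DSF, beside -0.00 and 0.01. TXNRD1 and SELENOS lay below CTR in all 3 treated libraries by their intervals, as did 13.5% of all tested genes, and SELENOF and SELENOO lay above in all 3, as did 14.4%.

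Under the joint treatment SELENOF did not exceed the level of either agent alone by more than counting error, except over DSF after rescaling to TPM (1.11, interval 1.025 to 1.19). The DSF and IM differences from CTR sum to 2.04 log2 units, whereas IM-DSF differed from CTR by 1.07, a departure from additivity of -0.97. Departures of at least 1 unit on the negative side occurred in 1.68% of the tested genes and on the positive side in 1.38%. The other 9 genes departed by -0.26 (SELENOW) to 0.33 (SELENOS), and the median over the 10 was 0.06 against -0.01 over all tested genes. All terms of this sum use the CTR library.

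By the Euclidean distance of the 4 centred log2(FPKM + 1) values, 7 of 9355 other protein-coding genes lay within 0.2 of SELENOF. The nearest was C21orf91 at 0.09, with 3.40, 3.61 and 3.72 FPKM in DSF, IM and IM-DSF, against 1.38 in CTR. RBM33 followed at 0.11, ZNF254 at 0.13 and BTBD3 at 0.16. IFNGR1, the ligand-binding chain of the interferon gamma receptor, came next at 0.16, with 15.02, 15.6 and 17.95 FPKM in DSF, IM and IM-DSF, against 6.82 in CTR. C21orf91 and ZNF254 overlap another gene on the same strand, so their values are uncertain. All 5 share the shape of SELENOF over these libraries, a low CTR value below 3 similar treated values, and nothing further follows from 4 points.

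Of the 10 genes, the other ER selenoproteins SELENOK, SELENOS and SELENOT were lower in treated cells than in CTR wherever the interval excluded 1. SELENOK, a small ER membrane protein that works with the palmitoyltransferase ZDHHC6 (SELENOK: ENSG00000113811, chr3:53884410-53891988, minus strand), had 6.67 FPKM under DSF, 5.76 under IM and 5.37 under IM-DSF, against 7.44 in CTR. Its lowest value is that of IM-DSF and its highest that of CTR. The ratio to CTR was 0.896 in DSF (0.774 to 1.04), 0.774 in IM (0.667 to 0.899) and 0.722 in IM-DSF (0.612 to 0.849), so the intervals exclude 1 in both libraries with IM and include it in DSF. IM-DSF was also below DSF, at a ratio of 0.806 (0.681 to 0.951), while the interval of IM-DSF over IM, 0.786 to 1.10, includes 1.

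SELENOS, which ties the segregase VCP to the Derlin channel that moves misfolded proteins out of the ER (SELENOS: ENSG00000131871, chr15:101270817-101277500, minus strand), had 3.55 FPKM under DSF, 3.32 under IM and 3.67 under IM-DSF, against 4.30 in CTR. CTR is the highest of the 4 and the treated libraries lie near each other. SELENOS over CTR was 0.826 in DSF (0.713 to 0.956), 0.773 in IM (0.667 to 0.894) and 0.852 in IM-DSF (0.731 to 0.992). The interval of IM-DSF over IM, 0.941 to 1.29, and that of IM-DSF over DSF, 0.880 to 1.21, include 1.

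SELENOT, a thioredoxin-like oxidoreductase of the ER (ENSG00000198843, chr3:150602875-150630445, plus strand), had 6.91 FPKM under DSF, 6.63 under IM and 6.50 under IM-DSF, against 7.46 in CTR. The 4 values lie within 1.15-fold of each other, with CTR at the top. SELENOT over CTR was 0.926 in DSF (0.845 to 1.01), 0.888 in IM (0.811 to 0.973) and 0.871 in IM-DSF (0.790 to 0.960). The SELENOT locus overlaps SERP1 on the opposite strand, which had 16.9, 17.0 and 16.9 FPKM in DSF, IM and IM-DSF, against 17.2 in CTR. Whether counting used strand is not given in the sources used here, so reads of SERP1 could enter SELENOT. The pseudogene SELENOTP1 had 1.96, 1.82 and 1.82 FPKM in DSF, IM and IM-DSF, against 2.27 in CTR, and near-identical reads could be divided between it and SELENOT.

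The genes listed as ER partners of these proteins were all measured. Against CTR, the interval lay above 1 in 2 and below 1 in 3 of the 10 in DSF, in 2 and 5 in IM, and in 3 and 5 in IM-DSF, with median log2 differences of 0.01, -0.09 and -0.12. Over all tested genes 22.7%, 33.9% and 34.8% lay above and 22.5%, 29.6% and 32.2% below in DSF, IM and IM-DSF. None passed the size rule. In IM-DSF against CTR the largest difference was that of UFD1, a cofactor of VCP, at 0.709-fold (0.665 to 0.756). VCP itself had 49.7, 40.4 and 41.9 FPKM in DSF, IM and IM-DSF, against 53.6 in CTR, and lay at 0.782-fold in IM-DSF over CTR (0.751 to 0.814). UGGT1 and UGGT2, the partners of SELENOF, are given with their values already seen. In DSF, IM and IM-DSF the ratio to CTR was 1.06, 0.902 and 0.924 for UGGT1 and 1.17, 1.20 and 1.31 for UGGT2.

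TXNRD1 was lower in every treated library, and lowest under the joint treatment. It encodes the cytosolic thioredoxin reductase, whose penultimate residue is the selenocysteine shown above. TXNRD1 (ENSG00000198431, chr12:104215779-104350305, plus strand, 27 merged exons) had 22.5 FPKM under DSF, 18.4 under IM and 15.8 under IM-DSF, against 27.6 in CTR. The 4 values form a graded series with no close pair. The fragments behind them numbered 5989, 5282 and 3577 in DSF, IM and IM-DSF, against 7275 in CTR, the most of any of the 10 genes. The ratio to CTR was 0.812 in DSF (0.785 to 0.841), 0.666 in IM (0.643 to 0.690) and 0.573 in IM-DSF (0.551 to 0.597). IM-DSF was also below IM, at 0.861 (0.825 to 0.898), and below DSF, at 0.706 (0.677 to 0.736). All 5 intervals exclude 1, but no difference reached the size rule, the widest being -0.77 log2 units in IM-DSF against CTR. From the bottom of the 11004 genes TXNRD1 ranked 878th under DSF, 466th under IM and 405th under IM-DSF against CTR. The sum of both single differences, -0.85, was close to that of IM-DSF, -0.77.

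The pseudogene RPL18AP3 lies inside the TXNRD1 locus on the same strand, with 910, 1073 and 961 FPKM in DSF, IM and IM-DSF, against 810 in CTR. It overlaps no TXNRD1 exon in GENCODE 29, and its values run higher in the treated libraries while those of TXNRD1 run lower.

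The 10 listed genes of the thioredoxin system were all tested. In DSF, IM and IM-DSF against CTR the interval lay above 1 in 1, 2 and 3 of them and below 1 in 5, 5 and 4, with medians of -0.07, -0.13 and -0.11 log2 units. The shares of all tested genes were 22.7%, 33.9% and 34.8% above and 22.5%, 29.6% and 32.2% below. TXNIP, the inhibitor of thioredoxin, passed the size rule in IM (1.08) and IM-DSF (1.07), with 11.6, 19.3 and 19.1 FPKM in DSF, IM and IM-DSF, against 8.60 in CTR. RRM2, a subunit of ribonucleotide reductase, which takes electrons from thioredoxin, had 26.3, 20.3 and 17.3 FPKM in DSF, IM and IM-DSF, against 32.5 in CTR, an order of libraries like that of TXNRD1. TXN, thioredoxin itself, is given for its role with its values already seen, and had 165, 140 and 115 FPKM in DSF, IM and IM-DSF, against 175 in CTR.

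TXNRD1 is also a known target of NRF2, a factor that responds to oxidants through the antioxidant response element. Of 14 other known NRF2 targets, 13 were tested. Against CTR, the interval lay above 1 in 1 and below 1 in 9 of the 13 in DSF, in 3 and 9 in IM, and in 5 and 7 in IM-DSF, with medians of -0.34, -0.38 and -0.14 log2 units against 0.00, 0.02 and 0.02 over all tested genes. For all tested genes the shares were 22.7%, 33.9% and 34.8% above and 22.5%, 29.6% and 32.2% below. NQO1, a quinone reductase, had 3.55, 2.64 and 3.18 FPKM in DSF, IM and IM-DSF, against 6.36 in CTR, and passed the size rule in IM against CTR at -1.02. SRXN1, which repairs over-oxidized peroxiredoxins, had 27.5, 20.1 and 19.3 FPKM in DSF, IM and IM-DSF, against 36.9 in CTR. In IM-DSF against IM, the interval of 8 of the 13 lay above 1 and of 2 below (22.3% and 22.9% of all tested genes). The largest differences there were those of SLC7A11, at 1.85-fold (1.72 to 1.99), and FTH1, at 1.52-fold (1.46 to 1.58). SLC7A11 had 8.38, 7.73 and 14.3 FPKM in DSF, IM and IM-DSF, against 11.3 in CTR. FTH1 had 43.4, 45.7 and 69.3 FPKM in DSF, IM and IM-DSF, against 66.6 in CTR. The median of the 13 in IM-DSF against IM was 0.16 log2 units, beside -0.20 for TXNRD1.

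The core of the antioxidant response element, TGACNNNGC on either strand, was searched in RefSeq promoter windows of GRCh38.p14 that run from 250 bases before to 50 after a gene start. It occurred in 13.3% of 35116 windows and in 4 of 12 windows of the 9 selenium genes in that table, which were 1 window of SELENOK, 1 of SECISBP2 and both of TXNRD1. The 250 bases before the first TXNRD1 start are printed because the NRF2 targets are set beside this gene.
TXNRD1, chr12:104215529-104215778, plus strand: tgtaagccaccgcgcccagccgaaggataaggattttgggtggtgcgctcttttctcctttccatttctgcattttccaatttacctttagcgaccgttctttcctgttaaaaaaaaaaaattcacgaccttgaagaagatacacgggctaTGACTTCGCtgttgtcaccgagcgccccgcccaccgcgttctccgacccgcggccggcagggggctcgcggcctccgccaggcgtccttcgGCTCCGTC
The capitals mark 2 matches, whose first bases lie at -99 and -8 from the start, and the second is cut off by the end of the printed stretch. A match of these letters is a description of the window and not a binding site shown here.

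SELENOO was higher in every treated library and highest under the joint treatment. It encodes a mitochondrial pseudokinase that transfers AMP to other proteins. SELENOO (ENSG00000073169, chr22:50200979-50217616, plus strand) had 10.1 FPKM under DSF, 10.9 under IM and 12.4 under IM-DSF, against 8.07 in CTR. IM-DSF is the highest of the 4 and CTR the lowest. Relative to CTR it stood at 1.25 in DSF (1.08 to 1.44), 1.34 in IM (1.17 to 1.54) and 1.54 in IM-DSF (1.34 to 1.77). IM-DSF also exceeded IM, at 1.14 (1.01 to 1.30), and DSF, at 1.23 (1.08 to 1.41). Its steps run opposite to those of TXNRD1 in each of the 5 contrasts, and the sum of its single differences, 0.67 log2 units, lies near the 0.56 seen in IM-DSF.

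SELENOH and SELENOW, small proteins with a thioredoxin-like fold, varied by at most 1.22-fold over the 4 libraries. SELENOH, which is found in the nucleolus (ENSG00000211450, chr11:57741250-57743554, plus strand), had 9.70 FPKM under DSF, 11.1 under IM and 10.6 under IM-DSF, against 10.5 in CTR, and none of its 5 intervals excludes 1 in the deposited values. After rescaling to TPM, that of DSF over CTR (0.817 to 0.991) and that of IM-DSF over DSF (1.02 to 1.24) do. Its ratio to CTR was 0.921 in DSF (0.836 to 1.01), 1.05 in IM (0.961 to 1.16) and 1.01 in IM-DSF (0.914 to 1.11). The SELENOH locus is overlapped on the same strand by AP001931.1, at 0 to 0.139 FPKM, and by the read-through locus TMX2-CTNND1, at 0.698 and 0.757 FPKM in DSF and IM, and at 0 in IM-DSF and in CTR. SELENOW, a cytosolic protein (ENSG00000178980, chr19:47778572-47784686, plus strand), had 2.07 FPKM under DSF, 2.32 under IM and 1.94 under IM-DSF, against 1.89 in CTR. Only its IM library stands out, at a ratio of 1.22 to CTR (1.05 to 1.42), and IM-DSF lay below IM at 0.838 (0.716 to 0.979), an interval that includes 1 after rescaling to TPM (0.742 to 1.01).

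**Figure D2:**
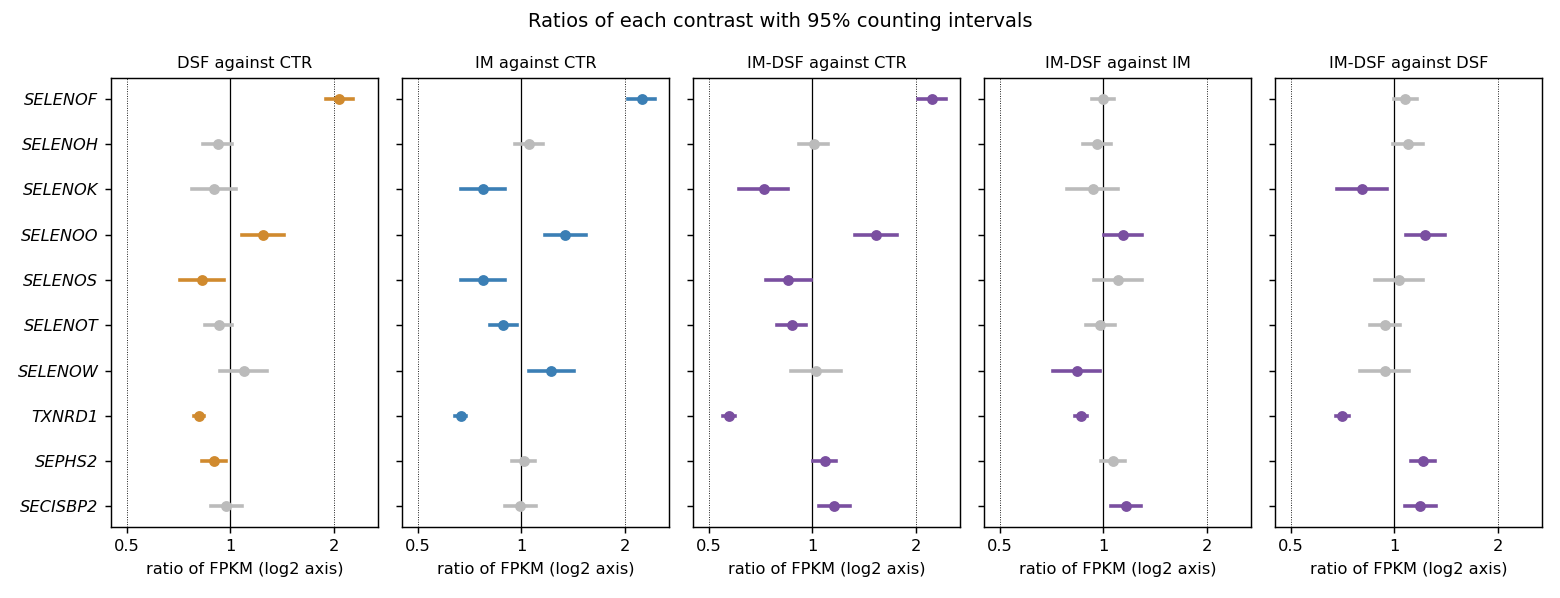
Ratio of FPKM for the 10 genes in the 5 contrasts (horizontal log2 axis, dotted lines at 0.5 and 2); points are ratios, bars their 95% counting intervals, and grey marks intervals that include 1. SELENOF lies at 2.08 to 2.24 against CTR and near 1 between treated libraries, and TXNRD1 lies left of 1 and SELENOO right of 1 in all 5 panels.

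The genes are grouped here by the place of the codon, with their directions in IM-DSF against CTR. A link of that place to the directions was not tested. Of the 4 with the TGA far upstream of the last junction, SELENOF was above CTR in IM-DSF, SELENOT was below it, and the intervals of SELENOH and SELENOW included 1. Of the 4 with the TGA close to the stop, SELENOK, SELENOS and TXNRD1 were below CTR in IM-DSF and SELENOO was above it. SEPHS2, which has a single exon, is in neither group.

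SEPHS2 and SECISBP2, the selenocysteine factors among the 10 genes, differed by at most 1.21-fold between libraries. SEPHS2 (ENSG00000179918, chr16:30444381-30446181, minus strand, 1 exon) had 43.6 FPKM under DSF, 49.5 under IM and 52.9 under IM-DSF, against 48.7 in CTR. DSF is the lowest and IM-DSF the highest. The ratio to CTR was 0.896 in DSF (0.827 to 0.971), 1.02 in IM (0.942 to 1.10) and 1.09 in IM-DSF (1.003 to 1.18), and IM-DSF exceeded DSF at 1.21 (1.12 to 1.32). With trimmed-mean factors the interval of IM-DSF over CTR includes 1 (0.983 to 1.15). SECISBP2 (ENSG00000187742, chr9:89318506-89359662, plus strand) had 3.64 FPKM under DSF, 3.72 under IM and 4.33 under IM-DSF, against 3.74 in CTR. The intervals of DSF and IM over CTR include 1, and IM-DSF is higher than each of the 3, at 1.16-fold over CTR (1.05 to 1.29), 1.17-fold over IM (1.05 to 1.29) and 1.19-fold over DSF (1.07 to 1.32).

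Of 12 further genes of this machinery, 10 were tested and none passed the size rule. Against CTR, the interval lay above 1 in 2 and below 1 in 3 of the 10 in DSF, in 3 and 4 in IM, and in 4 and 4 in IM-DSF, with medians of -0.10, -0.11 and 0.02 log2 units. These counts are near the shares of all tested genes, 22.7%, 33.9% and 34.8% above and 22.5%, 29.6% and 32.2% below. SEPSECS, the synthase that turns phosphoseryl-tRNA into selenocysteinyl-tRNA, had 4.89, 7.16 and 8.40 FPKM in DSF, IM and IM-DSF, against 5.31 in CTR. NCL, nucleolin, which can bind SECIS elements, had 165, 129 and 129 FPKM in DSF, IM and IM-DSF, against 183 in CTR. In DSF against CTR the largest difference was that of SEPHS1, the paralog of SEPHS2 that lacks selenocysteine, with 9.21, 8.14 and 7.60 FPKM in DSF, IM and IM-DSF, against 5.94 in CTR.

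Of 16 further selenoprotein genes, 6 were tested and the other 10 averaged below 1 FPKM. Their medians were 0.08, 0.18 and 0.09 log2 units in DSF, IM and IM-DSF against CTR, with intervals above 1 in 3, 3 and 3 and below 1 in 1, 1 and 3 of the 6. Beside them, 22.7%, 33.9% and 34.8% of all tested genes lay above and 22.5%, 29.6% and 32.2% below. GPX1, the cytosolic glutathione peroxidase, had 54.8, 80.0 and 150.5 FPKM in DSF, IM and IM-DSF, against 50.1 in CTR, which makes 3.004-fold in IM-DSF over CTR (2.87 to 3.14). It also passed the size rule in IM-DSF against DSF, at 1.44, where the widest difference among the 10 genes was the -0.48 of TXNRD1. GPX4, given because the study's title names it, had 20.1, 19.75 and 17.6 FPKM in DSF, IM and IM-DSF, against 19.6 in CTR. Its ratio in IM-DSF over CTR was 0.898 (0.833 to 0.969), and its intervals of DSF and IM over CTR include 1. SELENOI, an ethanolamine phosphotransferase, had 14.1, 11.5 and 11.1 FPKM in DSF, IM and IM-DSF, against 17.6 in CTR. SELENON, an ER membrane selenoprotein named with its values already seen, was above CTR by its interval in all 3 treated libraries, at 1.23-fold in DSF, 1.35-fold in IM and 1.35-fold in IM-DSF. So was TXNRD2, another thioredoxin reductase gene, also named with its values already seen. Unlike TXNRD1 it stood at 1.24-fold in DSF (1.10 to 1.41), 1.39-fold in IM (1.23 to 1.56) and 1.38-fold in IM-DSF (1.22 to 1.57).

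**Figure D3:**
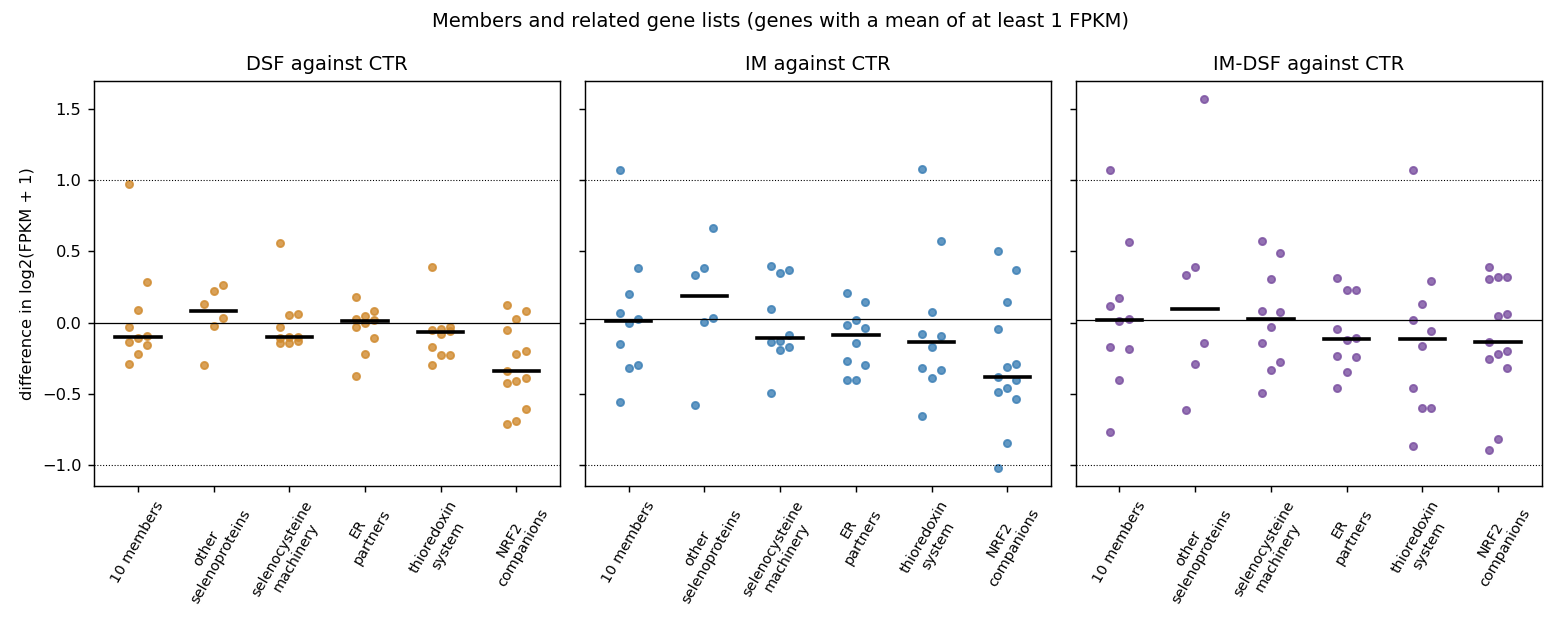
Differences in log2(FPKM + 1) from CTR (vertical axis) for the genes of each list with a mean of at least 1 FPKM, in DSF, IM and IM-DSF; each point is a gene, black bars are list medians, the thin line is the median of all tested genes, and dotted lines mark 1 unit either way. The 10 selenium genes centre on -0.10, 0.01 and 0.02 with SELENOF as the top point, and the NRF2 targets centre on -0.34, -0.38 and -0.14.

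Levels can be compared between genes only per length, and the length in these FPKM values is not the usual one. For 8 of the 10 genes the divisor that returns whole fragment numbers equals the summed length of all distinct annotated exons, so that overlapping exons with different ends each count in full. For SEPHS2 it equals the span of the deposited locus, 1801 bases, which is shorter than the gene in GENCODE 29. The divisor was 0.706 (SEPHS2) to 2.705 (TXNRD1) times the merged exon length, and the deposited FPKM of genes with many isoforms are low by that factor. For SELENOF the divisor, 5808 bases, was found only by search, and its merged length is 2201 bases.

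**Figure D4:**
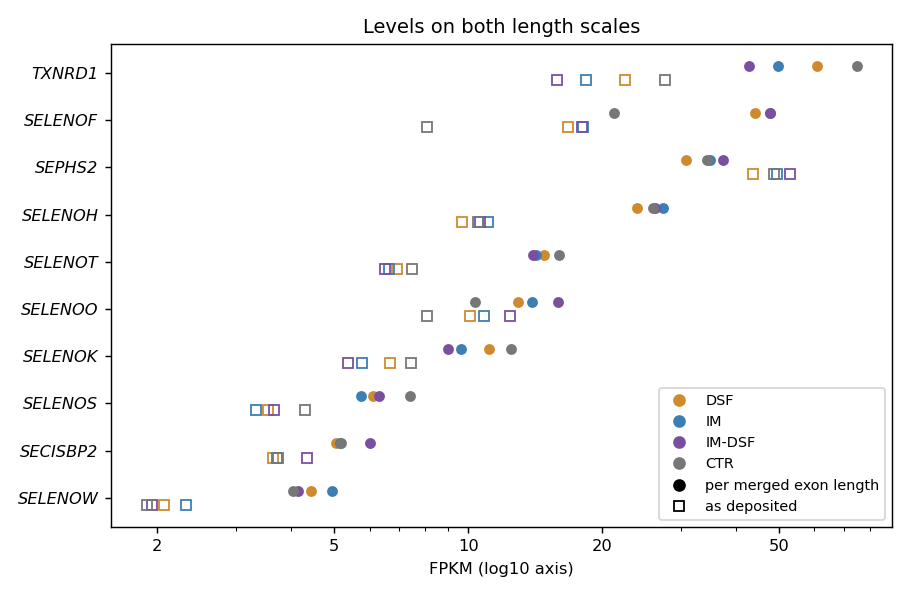
FPKM (horizontal log10 axis) of the 10 genes in DSF, IM, IM-DSF and CTR, as deposited (open squares) and per merged exon length (filled circles), ordered by the mean of the filled circles. TXNRD1 averages 57.0 and SEPHS2 34.4 FPKM per merged exon length, whereas SEPHS2 is the highest in the deposited values. The merged length of SEPHS2, 2551 bases, exceeds the 1801 bases of its deposited locus, so its filled circles may be too low.

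Per merged exon length the mean FPKM level over the 4 libraries was highest for TXNRD1 (57.0), followed by SELENOF (40.2) and SEPHS2 (34.4). TXNRD1 stood at 60.7, 49.8 and 42.9 in DSF, IM and IM-DSF, against 74.8 in CTR, and SELENOF at 44.2, 47.7 and 47.6 in DSF, IM and IM-DSF, against 21.3 in CTR, so in IM-DSF SELENOF was the higher of the pair. SELENOH (25.9), SELENOT (14.8), SELENOO (13.3) and SELENOK (10.6) came next, and SELENOS (6.39), SECISBP2 (5.35) and SELENOW (4.38) were lowest. The ranges of neighbours overlap between TXNRD1 and SELENOF, SELENOF and SEPHS2, SELENOT and SELENOO, SELENOO and SELENOK, and SELENOS and SECISBP2. They do not overlap for the other neighbours in this order. By deposited FPKM, SEPHS2 was the highest in every library. Those values, on 1801 bases, were 43.6, 49.5 and 52.9 in DSF, IM and IM-DSF, against 48.7 in CTR. Set beside the merged-length values of TXNRD1 and SELENOF, SEPHS2 would be the highest in IM-DSF. The order of these genes thus depends on the length taken for SEPHS2.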

How the data were processed

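The authors deposited 1 table of FPKM for 50868 genes in 4 libraries, per the file headers. For alignment tool and build, the submitters' processing notes list HISAT2 2.0.4 and GRCh38.p14. Not given in the sources used here are the counter, its annotation and whether it used strand. Rows were taken by gene symbol. The 10 genes, the 5 related gene lists and the naming rule (all 10 genes; list genes past 1 log2 unit in any contrast, otherwise the 2 that differ most in the contrast at hand; the 5 protein-coding genes nearest to the widest-ranging member) were chosen with earlier results of these data known.

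Whole fragment numbers were recovered from FPKM times length. In single-exon genes of GENCODE 29, between 95.6% and 96.0% of the 3319 to 3444 genes per library came within 0.05 of a whole number at 1 denominator per library. Among 9224 multi-exon genes under 5000 fragments, 86.6% came out whole with the summed length of distinct exons, against 6.82% with merged exons. For 1389 tested genes, SELENOF among them, the divisor was found by a search of lengths from 100 to 30000 bases. In all, 10987 of 11004 tested genes had whole numbers in all 4 libraries. Ratios are of deposited FPKM values, with 95% intervals by the exact conditional binomial method. PCR copies are not independent molecules, so the intervals are too narrow to that extent.

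Differences are log2(FPKM + 1). With 1 library per group no test and no count model was run. The size-rule counts, medians, single values and departure of the 10 genes were recomputed with median-of-ratios or trimmed-mean factors, after TPM rescaling, with 0.1 as pseudocount, without a filter, and with a filter at a mean of 5 FPKM (the departure not without a filter). Their interval counts were recomputed under the 3 scalings, a choice made after seeing the data. The related lists and nearest genes were not recomputed. The size rule and the recovery were tested on simulated data. Python 3.11.15 was used with numpy 2.4.6, pandas 2.3.3, scipy 1.17.1 and matplotlib 3.10.9. The result of 1 further marker list is not reported here.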

Additional observations from a re-analysis of the deposited data

How the results depend on the processing

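The count of selenium genes past the size rule changed under 1 alternative. With a pseudocount of 0.1 it was 1 gene in DSF against CTR, SELENOF, in place of 0. Under the other 5 alternatives that count stayed at 0, and in the other 4 contrasts no alternative changed the count. Of 200 values of single genes under the other pseudocount and the 3 scalings, 199 moved by less than the distance that the counting interval reaches to either side. The exception was TXNRD1 in IM against CTR, at -0.62 log2 units after TPM rescaling and -0.56 as deposited. No called value changed sign. Signs did turn for SEPHS2 in IM against CTR, SELENOH in IM-DSF against CTR, and SELENOF and SELENOT in IM-DSF against IM, all with intervals that include 1. Under the 3 scalings, chosen for this after seeing the data, 8 interval calls changed, counting each scaling apart. TPM rescaling brought 7 genes past 1 in DSF against CTR (SELENOH and SELENOT joining) and 7 in IM-DSF against DSF (SELENOF and SELENOH joining), against 5 as deposited in each. In IM-DSF against IM it took in SEPHS2 (1.02 to 1.20) and lost SELENOW. The median-of-ratios and trimmed-mean factors each lost SEPHS2 in IM-DSF against CTR. No paired analysis was possible because each group has 1 library, and for the same reason no replicate could be left out. The median counting interval reached 0.14 to 0.15 log2 units either way, and it was narrower for genes with more fragments.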
